A study of Homo sapiens with 6 samples.

Results

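The 10 genes described here encode the enzymes that break down haem (HMOX1, HMOX2, BLVRA and BLVRB), the ferritin subunits that store iron (FTL and FTH1), the receptor that delivers ferritin for breakdown (NCOA4), the transferrin receptor (TFRC) and both iron regulatory proteins (ACO1 and IREB2). They were taken by symbol from a table of 60892 rows of read counts per gene, and all 10 matched a single row and passed the filter on low counts. The cells were of BEAS-2B, a line made from normal human bronchial epithelium by viral immortalisation and labelled wild type, kept in DMEM with 10% serum and antibiotics. Both groups were infected with methicillin-resistant Staphylococcus aureus (MRSA), at an infection ratio of 1:1, and collected 2 hours later. The control group had plain medium for the 24 hours before infection, and the ZQ group had ZQ (Zhenqi Granules, a herbal preparation) at 10 mg/mL. Each group had 3 libraries, and no group went without bacteria. Whether each library had its own culture is not stated, so a p-value here reflects library-to-library spread that may be technical.

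Haem oxygenase opens the haem ring and releases iron, carbon monoxide and biliverdin, and biliverdin reductase turns biliverdin into bilirubin. HMOX1 is the inducible form of the oxygenase and HMOX2 the constitutive one. Ferritin, a shell of light (FTL) and heavy (FTH1) chains, holds iron in the cytosol, while the transferrin receptor brings iron in. Iron regulatory proteins bind a hairpin in the messenger RNA called the iron-responsive element: bound near the start of ferritin mRNA they block its translation, and bound in the tail of TFRC mRNA they protect it from decay. In airway epithelium, which meets iron-seeking bacteria such as S. aureus, the same genes include those for the uptake, storage and release of iron within the cell.

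The hairpins are shown because they are shared by members whose CPM moved in opposite directions. They were searched for in GENCODE 29 transcripts as a C, any 5 bases and the loop CAGTGN (N is any base), read on the transcript strand only, with all 5 bases before the loop able to pair with the 5 after it (G with T allowed). In 3 of the 10 genes the representative transcript held a match: FTL and FTH1 1 each in the 5′ UTR, and TFRC 4 in the 3′ UTR. Capitals mark the 6-base loop, each run is 29 bases in 5′ to 3′ direction, and coordinates are GRCh38.
FTL, chr19:48965335-48965363, plus strand: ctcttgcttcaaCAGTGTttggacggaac
FTH1, chr11:61967574-61967602, minus strand: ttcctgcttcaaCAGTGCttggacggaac
TFRC, chr3:196050979-196051007, minus strand: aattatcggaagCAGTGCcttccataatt
TFRC, chr3:196050575-196050603, minus strand: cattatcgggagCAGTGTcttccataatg
TFRC, chr3:196050510-196050538, minus strand: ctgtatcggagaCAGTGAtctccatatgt
TFRC, chr3:196050463-196050491, minus strand: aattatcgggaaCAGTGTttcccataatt
The letters alone occurred in 70.5% of the 11514 tested protein-coding genes, and the paired hairpin in 177 of them, or 1.54%. Of the 174 such genes outside the 10, 28 were called higher and 38 lower with ZQ (16.1% and 21.8%), close to the shares over all genes given below. A match is a description of the sequence, and no match says only that these letters with this pairing are not in that transcript.

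Library totals were 11665967 to 14699677 counts in control and 2064566 to 2451746 with ZQ, a mean depth 5.95 times lower. Mitochondrially encoded genes took 7.04% to 10.1% of counts in control and 38.4% to 40.7% with ZQ, and with those genes left out of the fit the 10 genes kept 4 calls higher and 3 lower. Values are CPM, counts per 1000000 counts of a library with its size scaled by TMM, and 3 counts in a library correspond to 0.174 to 0.231 CPM in control and 1.45 to 1.67 CPM with ZQ. Epithelial markers summed to 1840 to 3320 CPM in control and 1720 to 1960 CPM with ZQ, nearly all from KRT8, KRT18 and KRT7. These did not move together: mean KRT8 went from 1606 to 680 CPM, KRT7 from 155 to 475 CPM and KRT18 from 697 to 690 CPM. KRT19 went from 5.75 to 1.18 CPM, and KRT5, EPCAM and CDH1 stood at or below 2.26 CPM on average in either group. Of 6 leukocyte markers, LYZ and CD68 had no count and the list summed to at most 7.32 CPM. Of 6 red cell precursor markers, none had a count in control libraries, and they summed to 2.79 to 13.1 CPM with ZQ, where ALAS2 had no count. Despite the lower depth, 23836 to 24713 genes had a count in ZQ libraries and 19400 to 21141 in control. Counts per kb pooled over 389 olfactory receptor genes, taken as a background set, were 0.173 in control and 1.56 with ZQ, so the background was higher with ZQ even before scaling to depth. Fewer cells of a type and less RNA per cell cannot be told apart in such libraries.

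Across the 10 genes, HMOX1, BLVRB, FTL and FTH1 were higher with ZQ and TFRC, ACO1 and NCOA4 lower, at an adjusted p below 0.05 in edgeR's quasi-likelihood test. HMOX2, BLVRA and IREB2 did not pass. Those 4 higher and 3 lower of 10 compare with 19.3% higher and 19.0% lower among all 12994 tested genes. The CPM ranges of the groups did not overlap for 4 members in the upward and 4 in the downward direction, against 25.4% and 28.0% of tested genes (53.5% in either direction). The median log2 change was -0.06 over the 10 genes and 0.035 over all tested genes.

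**Figure D1:**
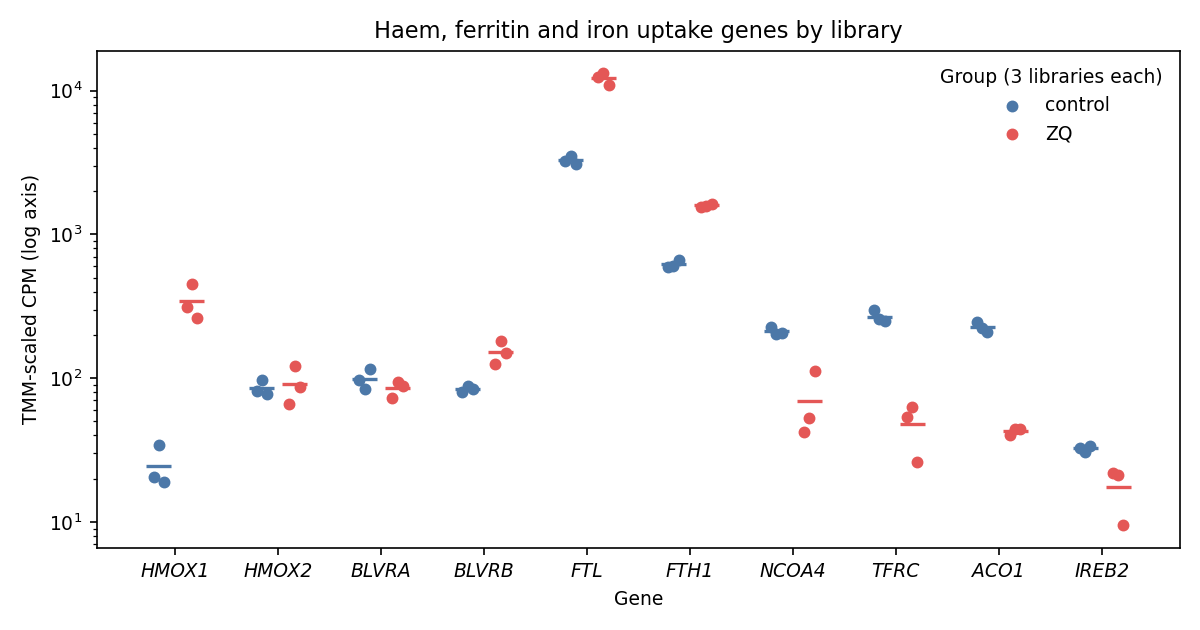
TMM-scaled CPM (log axis) of the 10 genes in each library, with 3 control and 3 ZQ libraries per gene and a bar at the group mean. HMOX1, BLVRB, FTL and FTH1 lie above the control libraries with ZQ, NCOA4, TFRC, ACO1 and IREB2 lie below, and the groups overlap for HMOX2 and BLVRA.

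HMOX1 had the largest change of the 10. Its gene lies on chromosome 22 at 35380361 to 35394214. Its level was 20.6, 34.4 and 19.1 CPM in control replicates 1 to 3 and 314, 451 and 262 CPM in ZQ replicates 1 to 3. The lowest ZQ library was thus far above the highest control library, and replicate 2 was the highest in both groups. The means were 24.7 ± 8.43 and 342 ± 97.9 CPM (SD, n = 3 each), and the log2 change was 3.79 ± 0.30 (SE, edgeR adjusted p = 1.73e-05), a 13.8-fold rise. The raw counts also went up, from 1141 in the control libraries together to 1974 in the far shallower ZQ libraries. HMOX1 was the only one of the 10 with more raw counts in the ZQ than in the control libraries.

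HMOX2, the constitutive oxygenase on chromosome 16 (4474690 to 4510347), stood at 81.5, 97.5 and 77.5 CPM in control and 66.4, 121 and 86.5 CPM with ZQ. The ZQ libraries spread on both sides of the control range. Its log2 change was 0.10 ± 0.25 (edgeR adjusted p = 0.785), and the sign of this small difference changed with the processing, from -0.33 with offsets for GC content and transcript length to 0.55 under upper-quartile scaling. Its exons share 228 bases with NMRAL1 on the other strand, and no source used here states whether strand was used in counting, so the reads of that stretch may belong to either gene.

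Of the biliverdin reductases, BLVRB was called higher and BLVRA was not called, and the order of the pair depended on the processing. BLVRA, the main adult form, on chromosome 7 (43758680 to 43807342), had 97.5, 83.5 and 115 CPM in control and 72.4, 94.8 and 88.2 CPM with ZQ, overlapping ranges. Its log2 change of -0.21 ± 0.22 did not pass (edgeR adjusted p = 0.468), and it passed in 1 of 18 alternatives, by library totals (-0.59). BLVRB, which reduces fetal-type biliverdin and flavins, on chromosome 19 (40447765 to 40465840), had 80.2, 88.0 and 84.0 CPM in control and 126, 182 and 150 CPM with ZQ, so every ZQ library was above every control library.

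BLVRB rose by 0.86 ± 0.20 on the log2 scale (edgeR adjusted p = 0.00628), from 84.1 ± 3.94 to 153 ± 28.0 CPM (SD, n = 3 each). The direction depended on the processing: with the GC and length offsets it was called lower, at -0.83 (edgeR adjusted p = 0.00826), and the call was lost by library totals (0.48) and without a filter on low counts (0.55). The BLVRB transcript has 62.2% GC, higher than 90.9% of tested protein-coding genes, and at 873 bases is longer than only 2.6% of them, so its corrected value rests on the ends of both fitted curves.

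The ferritin mRNAs were the most abundant of the 10 in both groups. FTL, the light chain on chromosome 19 (48965301 to 48966878), had 3259, 3531 and 3116 CPM in control libraries and 12550, 13210 and 11040 CPM in ZQ libraries. The groups were far apart and each kept within a narrow range. The log2 change was 1.89 ± 0.10 (edgeR adjusted p = 1.37e-06), a 3.71-fold rise, which with the GC and length offsets was 0.85 and still called. At 878 bases the FTL transcript is longer than only 2.7% of tested protein-coding genes. Its value with the offsets thus also rests on the end of the fitted length curve.

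FTH1, the heavy chain that carries the ferroxidase activity, on chromosome 11 (61959718 to 61967660), had 596, 608 and 660.0 CPM in control and 1562, 1576 and 1636 CPM with ZQ. Its ZQ libraries differed by less than any other called member's in proportion to their mean, with 1591 ± 39.5 CPM (SD, n = 3). FTH1 rose by 1.36 ± 0.11 on the log2 scale (edgeR adjusted p = 1.68e-05), or 2.56-fold, and by 1.17 with the offsets. FTL and FTH1 together took 0.447% ± 0.0336 of all counts in control and 1.19% ± 0.0808 with ZQ (SD, n = 3 each). Of the counts outside the mitochondrial genome they took 0.49% ± 0.0282 and 1.98% ± 0.143. Neither range overlapped between groups (exact two-sided permutation p = 0.1, the lowest this design allows).

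Ferritin genes have many processed copies in the genome, and reads may be shared with them. Of 25 rows annotated as FTH1 pseudogenes 16 had a count, together 9.71% of the FTH1 counts in control and 12.7% with ZQ. For FTL, 9 of 16 such rows had a count, at 0.767% and 0.782% of its counts. With the pseudogene counts added to their parent genes, both ferritin genes were still called higher. FTH1 also shares 1267 exonic bases with BEST1 on the other strand. BEST1 held 25 control and 13 ZQ counts in all, against 27744 and 9036 for FTH1. Had reads of the shared bases been credited to neither gene, these counts would not show it.

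NCOA4, the cargo receptor that takes ferritin to the lysosome so that its iron is released, went the other way from ferritin. On chromosome 10 (46005088 to 46030714), it had 226, 204 and 206 CPM in control libraries and 42.2, 52.7 and 112 CPM in ZQ libraries. All 3 ZQ libraries were below the control range, with ZQ replicate 3 well above the other two. The log2 change of NCOA4 was -1.62 ± 0.32 (edgeR adjusted p = 0.0027), a 3.07-fold fall, which was -2.25 without ZQ replicate 3 and -1.15 with the offsets, called lower in each case.

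TFRC, the receptor that takes up transferrin-bound iron, fell about as far as ACO1, and which of them fell further depended on the processing and on ZQ replicate 3. On chromosome 3 (196027183 to 196082189), it stood at 297, 256 and 252 CPM in control and 53.8, 63.4 and 26.2 CPM with ZQ. The highest ZQ library was far below the lowest control library, and ZQ replicate 3 was the lowest. The means were 268 ± 24.8 and 47.8 ± 19.3 CPM (SD, n = 3 each), with a log2 change of -2.48 ± 0.29 (edgeR adjusted p = 0.000157), a 5.60-fold fall. It was -2.29 without ZQ replicate 3, and -1.61 with the offsets (edgeR adjusted p = 0.00198), where ACO1 had -2.50 and -2.24. TFRC has a long transcript of 5111 bases with 41.5% GC.

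ACO1, which encodes iron regulatory protein 1 and doubles as the cytosolic aconitase when it holds an iron-sulfur cluster, also fell. On chromosome 9 (32384603 to 32454769), it had 245, 223 and 209 CPM in control and 40.6, 44.5 and 44.1 CPM with ZQ, and the ZQ values lay close together. The log2 change was -2.39 ± 0.18 (edgeR adjusted p = 1.53e-05), a 5.23-fold fall, and -2.24 with the offsets. IREB2, which encodes iron regulatory protein 2, on chromosome 15 (78437431 to 78501456), had 33.0, 30.6 and 33.9 CPM in control and 21.9, 21.3 and 9.49 CPM with ZQ.

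For IREB2 the groups did not overlap, yet the log2 change of -0.88 ± 0.40 did not pass (edgeR adjusted p = 0.106). It was called lower when scaled by library totals (-1.27) or with every gene kept (-1.19), and was 0.29 without a call with the offsets. Its depth was small with ZQ, with 40, 44 and 17 counts on a transcript of 6354 bases at 38.3% GC. That is 15.9 counts per kb over the ZQ libraries, against 1.56 pooled over the olfactory receptor genes and 16.3 at their 99th percentile. In control it was 228 counts per kb, against 0.173 and 3.77. A part of background reads in its ZQ value was not tested. The other 9 genes had 32.8 counts per kb or more with ZQ.

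**Figure D2:**
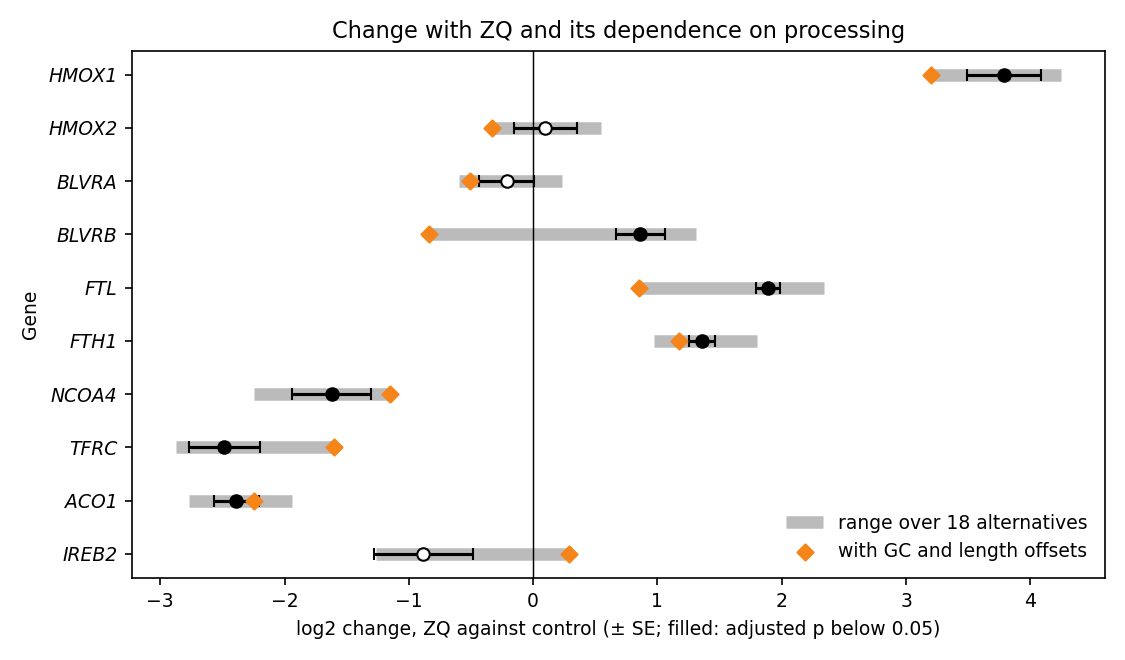
Log2 change of each gene with ZQ against control (circle ± SE, filled where the adjusted p is below 0.05), its range over 18 alternative ways of processing (grey bar) and its value with GC and length offsets (diamond). HMOX1, FTL and FTH1 stay above 0 and NCOA4, TFRC and ACO1 below 0 throughout, while BLVRB spans 0 from -0.83 to 1.31.

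Composition differed between the members called higher and those called lower. Over the 11514 tested protein-coding genes the log2 change had a Spearman rho of 0.507 with GC content and -0.13 with transcript length, a description across genes that share the same libraries. The genes called lower had 41.5% to 46.7% GC and those called higher 50.1% to 62.2%. The representative transcripts of those called higher had 873 to 1822 bases, and of those called lower 2307 to 7466. The offsets that take out both trends were fitted over all genes and would also remove any effect of ZQ that follows GC content or length. Besides BLVRB and FTL, other members also lay toward an end of a fitted curve. IREB2 had a higher GC content than only 7.9% of tested protein-coding genes. BLVRA and FTH1 were longer than only 6.3% and 7.4% of them, and ACO1 was longer than 89.8%.

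**Figure D3:**
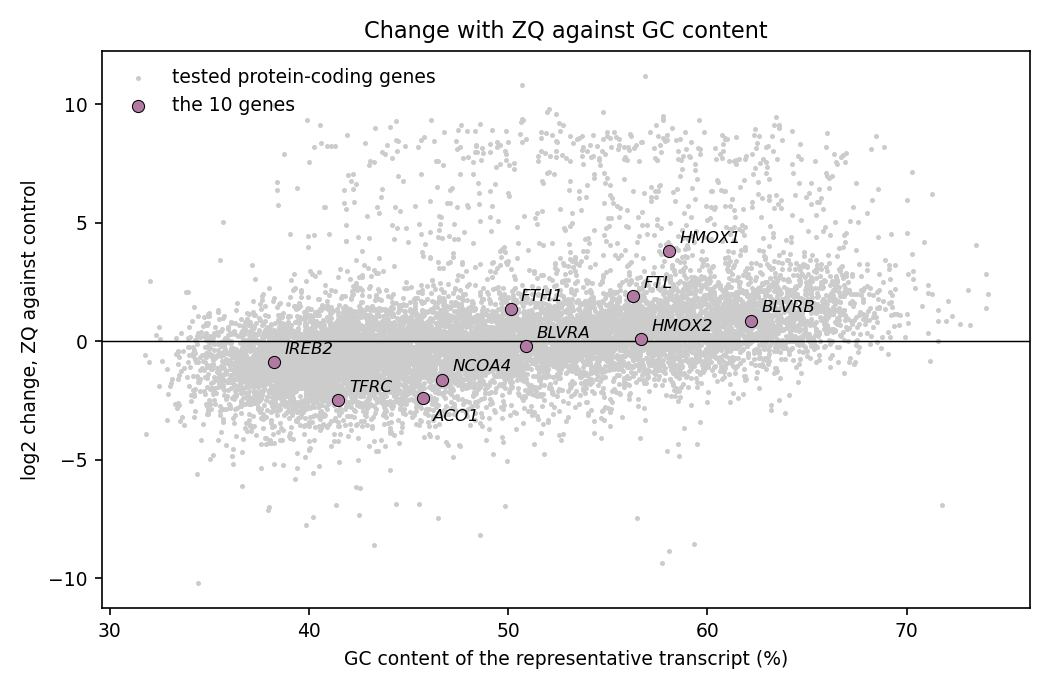
Log2 change with ZQ against the GC content (%) of the representative transcript, for the tested protein-coding genes (grey) and the 10 genes (purple, named). The cloud rises from left to right, HMOX1 at 58.1% GC lies near its upper side, and TFRC, ACO1 and NCOA4 lie at 41.5%, 45.7% and 46.7% GC.

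Ratios of a pair of genes within a library do not depend on how libraries are scaled. There were 0.253, 0.353 and 0.246 HMOX1 counts per HMOX2 count in control replicates 1 to 3 and 4.73, 3.72 and 3.03 with ZQ. The inducible oxygenase thus went from the minor to the major form in all 3 ZQ libraries, a shift of 3.74 in the mean log2 ratio (3.54 with the offsets). TFRC gave 0.498, 0.422 and 0.382 counts per FTH1 count in control and 0.0344, 0.0402 and 0.016 with ZQ, a shift of -3.93, or -2.78 with the offsets.

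NCOA4 gave 0.379, 0.335 and 0.312 counts per FTH1 count in control and 0.0271, 0.0335 and 0.0686 with ZQ, a shift of -3.10, or -2.32 with the offsets. HMOX1 counts per BLVRB count went from between 0.228 and 0.391 to between 1.74 and 2.49, a log2 shift of 2.96, or 4.04 with the offsets. IREB2 counts per ACO1 count went from between 0.135 and 0.163 to between 0.215 and 0.54, a shift of 1.42, or 2.53 with the offsets. All 5 of these ratios shifted in the same direction with and without the offsets.

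The subunit ratios were less firm. FTL counts per FTH1 count were 5.47, 5.81 and 4.72 in control and 8.04, 8.38 and 6.75 with ZQ, a log2 shift of 0.53 that reversed to -0.32 with the offsets. BLVRB counts per BLVRA count were 0.822, 1.05 and 0.729 in control and 1.74, 1.92 and 1.70 with ZQ, a shift of 1.06 that reversed to -0.33. In none of the 7 pairs did control and ZQ ratios overlap. The share of other gene pairs without overlap was not computed, and of single tested genes 53.5% did not overlap. TFRC and NCOA4 were lower and FTH1 higher without overlap in CPM, so the ratios of TFRC and NCOA4 to FTH1 had to separate. The two-sided exact permutation test gave p = 0.1 before and after Benjamini-Hochberg adjustment over the 7, and 3 against 3 libraries cannot go lower.

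**Figure D4:**
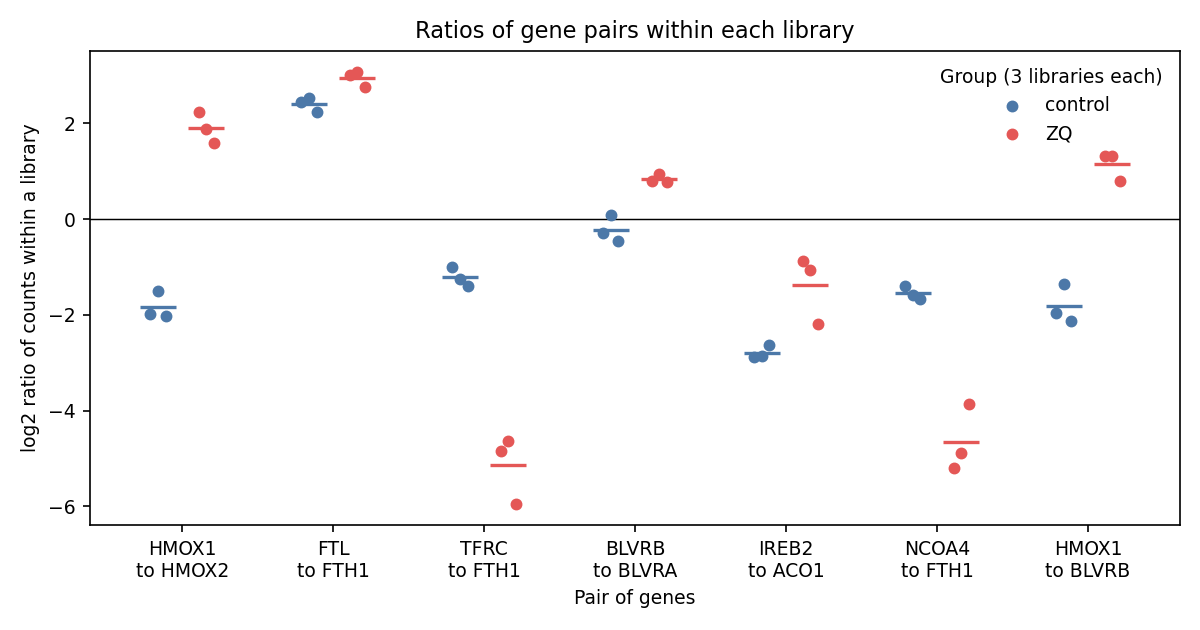
Log2 ratio of the counts of 7 gene pairs within each of 3 control and 3 ZQ libraries, with a bar at each group mean. The groups do not overlap in any pair (the share among other gene pairs was not computed), and HMOX1 to HMOX2 and HMOX1 to BLVRB go from below to above 0.

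Per kb of transcript, the order of mean levels in control was FTL at 3760, FTH1 at 506, BLVRB at 96.3, NCOA4 at 91.8, BLVRA at 85.1, TFRC at 52.5, HMOX2 at 39.8, ACO1 at 30.2, HMOX1 at 13.6 and IREB2 at 5.11 CPM per kb. Only BLVRB and NCOA4, and NCOA4 and BLVRA, overlapped as neighbours in that order. With ZQ the mean levels were FTL at 13970, FTH1 at 1295, HMOX1 at 188, BLVRB at 175, BLVRA at 73.3, HMOX2 at 42.6, NCOA4 at 29.9, TFRC at 9.35, ACO1 at 5.77 and IREB2 at 2.77 CPM per kb. HMOX1 thus moved from the 9th to the 3rd place, where it overlapped BLVRB, and HMOX2 with NCOA4 and TFRC with ACO1 also overlapped as neighbours.

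Among 5677 other protein-coding genes with a mean of at least 20 CPM, those whose centred log2 CPM over the 6 libraries lay nearest to HMOX1 were DVL1, MAP3K14, MT-ND6, MT-ND1 and KIF1C, at Euclidean distances of 0.793 to 1.11. Their log2 changes ran from 2.92 (KIF1C) to 3.93 (MAP3K14). Nearest to TFRC were WDR48, LAMB1, MELK, TBC1D23 and SHCBP1, at distances of 0.359 to 0.421 and with log2 changes of -2.27 (LAMB1) to -2.66 (SHCBP1). With 6 libraries in 2 groups such a distance mostly reflects the group difference.

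Of 109 other iron and haem genes on 9 lists, 91 were tested, of which 12 were called higher and 20 lower. These are 13.2% and 22% of those tested, against 19.3% and 19.0% of all tested genes, and the median log2 change was -0.10. The counts of each list below compare with the same shares of all tested genes. Over the 9 lists together the split varied with scaling, at 25 higher with 14 lower for upper-quartile scaling, and at 3 higher with 27 lower for library totals. It was 4 higher and 13 lower without control replicate 1, and 5 and 13 without control replicate 3. Leaving out control replicate 2 gave 10 higher and 15 lower, and leaving out a ZQ library gave 8 to 13 higher and 19 to 23 lower.

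Depth was low for part of these genes: 10 of the 32 called, 3 higher and 7 lower, stood in the ZQ libraries at or under the value per kb that 99% of olfactory receptor genes do not exceed. They were TF, HEBP2 and PCBP3 among those higher, and SLC40A1, ABCG2, SLC11A2, CDC42BPA, FECH, BACH1 and ALAD among those lower. The value per kb depends on the representative transcript, which is long for TF (20602 bases) and HEBP2 (10014 bases). A shorter transcript would give these genes a higher value per kb. A part of background reads in the values of the 10 was not tested.

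The list of iron uptake and export had 5 of 11 tested members lower and 1 higher (median -0.41). SLC39A14, a metal importer of the cell surface, fell with a log2 change of -2.91 ± 0.35, and CYBRD1, a membrane ferrireductase, with one of -2.02 ± 0.23, or -1.10 with the offsets (edgeR adjusted p = 0.000194 and 0.000157). CD44, a surface glycoprotein also linked to iron endocytosis, changed by -1.47 ± 0.19. SLC11A2 (DMT1), which carries iron out of endosomes, had 467, 454 and 424 counts in control and 1, 4 and 16 with ZQ, a log2 change of -3.01 ± 0.71 (edgeR adjusted p = 0.00737) that was -4.65 without ZQ replicate 3. SLC40A1, the iron exporter ferroportin, was down to 1 count over the ZQ libraries from 137 in control, a 17.4-fold difference (95% exact counting interval 3.07 to 691), and 8 of 12 alternatives called it. The 1 call higher was that of TF, transferrin itself, which had 4 control and 49 ZQ counts, 34 of them in ZQ replicate 3 (log2 change 6.40 ± 1.22, edgeR adjusted p = 0.00228, and 5.14 without that library). Per kb of its representative transcript, which has 20602 bases, TF had 0.194 counts in control and 2.38 with ZQ. The olfactory receptor genes had 0.173 and 1.56. On that length both TF values were close to the background of their group, and a shorter transcript would give higher values.

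Other mRNAs described as carrying iron-responsive elements had 4 of 7 tested members lower and 0 higher, with a median of -1.65. They included SLC11A2, SLC40A1 and CDC42BPA, a cytoskeletal kinase (-1.25 ± 0.42, edgeR adjusted p = 0.0365), which was called in 8 of 17 alternatives. The hairpin search found 1 match each in SLC40A1 and the untested ALAS2, both in the 5′ UTR. It found none in the representative transcripts of SLC11A2, CDC42BPA, EPAS1, SDHD and CDC14A. The search thus missed much of a list described as carrying the element.

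Transcription factors known to act on HMOX1 and the ferritin genes had 3 of 10 tested members lower and 0 higher, with a median of -0.87. NFE2L2 (NRF2), the activator of these genes under oxidative stress, fell with a log2 change of -1.28 ± 0.18 (edgeR adjusted p = 0.000507), or -0.71 with the offsets. BACH1, the haem-sensing repressor of the same sites, stood at 63.3 ± 12.3 CPM in control and 10.00 ± 8.96 CPM with ZQ (SD, n = 3 each). Its log2 change was -2.67 ± 0.54 (edgeR adjusted p = 0.00322), and it was -1.50 with the offsets and -3.78 when ZQ replicate 1 was left out. HIF1A, the hypoxia factor, changed by -2.39 ± 0.14, or -1.15 with the offsets. KEAP1, which holds NRF2 in check, had a log2 change of -0.50 without a call (edgeR adjusted p = 0.323), and was called lower with the offsets (-1.29). ARNT, the partner of HIF1A, had one of -1.24 ± 0.46 (edgeR adjusted p = 0.0551), with a call in 6 of 17 alternatives.

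Haem synthesis had 2 of 10 tested members lower and 0 higher (median 0.00). FECH, ferrochelatase, which puts iron into haem, fell with a log2 change of -2.10 ± 0.49 (edgeR adjusted p = 0.00669). ALAD, an early enzyme of the pathway, went from 22.3 ± 5.28 to 5.59 ± 3.85 CPM (edgeR adjusted p = 0.0172, SD over n = 3 each). ALAD was called in 14 of 17 alternatives, and its call was lost whichever control library was left out. ALAS1, the rate-limiting enzyme outside red cells, stood at 103 ± 11.4 and 109 ± 36.3 CPM (SD, n = 3 each). CPOX and TMEM14C had log2 changes of 1.12 and 0.43 without a call (edgeR adjusted p = 0.0595 and 0.0611), and were called higher in 7 and 4 of 17 alternatives.

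Haem transport and binding had 2 of 10 higher and 2 lower (median -0.19). ABCG2, an exporter of porphyrins, had 360 control and 7 ZQ counts (log2 change -2.69 ± 0.68) and PGRMC1, a haem-binding membrane protein, changed by -1.02 ± 0.24. Both lost their call with the offsets, at -1.75 and -0.29. The haem-binding proteins HEBP1 and HEBP2 were higher, with log2 changes of 1.27 ± 0.38 and 2.04 ± 0.65, and passed in 12 of 17 and 7 of 16 alternatives. SLC48A1, which moves haem out of lysosomes, had 0.49 ± 0.42 (edgeR adjusted p = 0.391).

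Ferritin loading and release had 2 of 8 tested members higher and 2 lower beside NCOA4 (median 0.64). The poly(rC)-binding protein gene PCBP2, of a family that delivers iron to ferritin, rose by 1.86 ± 0.28 on the log2 scale. PCBP3, with 30 control and 24 ZQ counts, was called at 2.72 ± 0.90 and in 5 of 11 alternatives. PCBP1, with 67 and 14 counts, had 0.76 without a call, and these relatives may share reads. TAX1BP1, an autophagy adaptor used with NCOA4, had -1.33 ± 0.20, and FBXL5, the iron-sensing adaptor that marks IREB2 protein for breakdown, had -0.86 ± 0.29 (edgeR adjusted p = 0.000705 and 0.041). Both calls ended with the offsets, at 0.06 and 0.31, and that of FBXL5 held in 7 of 17 alternatives.

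Mitochondrial iron and iron-sulfur assembly had 4 of 19 higher and 3 lower (median 0.33). GLRX5, a cluster carrier, rose by 1.51 ± 0.34 on the log2 scale. SLC25A37 (mitoferrin-1), the importer of iron into mitochondria, changed by -0.99 ± 0.22 and was called in 14 of 17 alternatives. Its call was lost under upper-quartile scaling and without control replicate 1 or 3. SLC25A28 (mitoferrin-2) was called higher at 1.85 ± 0.55 and in 9 of 16 alternatives. HSPA9, the mitochondrial chaperone of cluster transfer, had -0.78 ± 0.15 and lost its call with the offsets (-0.16). The cytosolic assembly list had 2 of 10 higher and 0 lower (median 0.43). Its CIAO2B, at 0.67 ± 0.16, was called lower with the offsets (-0.62), and NDOR1 held 85 control and 42 ZQ counts (2.03 ± 0.71) and passed in 7 of 15 alternatives. CIAO2A, also of the targeting complex, and GLRX3, a cytosolic cluster carrier, had 0.56 ± 0.24 and 0.33 ± 0.15 without a call (edgeR adjusted p = 0.0839 and 0.108). Each was called higher in 4 of 17 alternatives, with the offsets at 1.04 and 0.96.

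Genes of iron-linked lipid peroxidation had 1 of 9 tested members higher and 1 lower (median -0.68). GPX4, the peroxidase that protects membranes, was called higher at 0.74 ± 0.15 and lower with the offsets at -1.01 (edgeR adjusted p = 0.00385 and 0.000802). ACSL4, which supplies oxidisable lipids, had -1.92 ± 0.26, and -0.63 without a call with the offsets. SLC7A11, the cystine importer, had -0.59 ± 0.40 (edgeR adjusted p = 0.266). AIFM2, a membrane antioxidant reductase, and LPCAT3, which places such lipids in membranes, had -0.56 ± 0.28 and -1.80 ± 0.97, also without a call (edgeR adjusted p = 0.142 and 0.168). AIFM2 was called lower in 4 of 17 alternatives, at -1.05 with the offsets and -0.93 without ZQ replicate 2. LPCAT3, with 0, 1 and 13 counts in the ZQ libraries, was called lower in 3 of 16, at -5.13 without ZQ replicate 3.

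**Figure D5:**
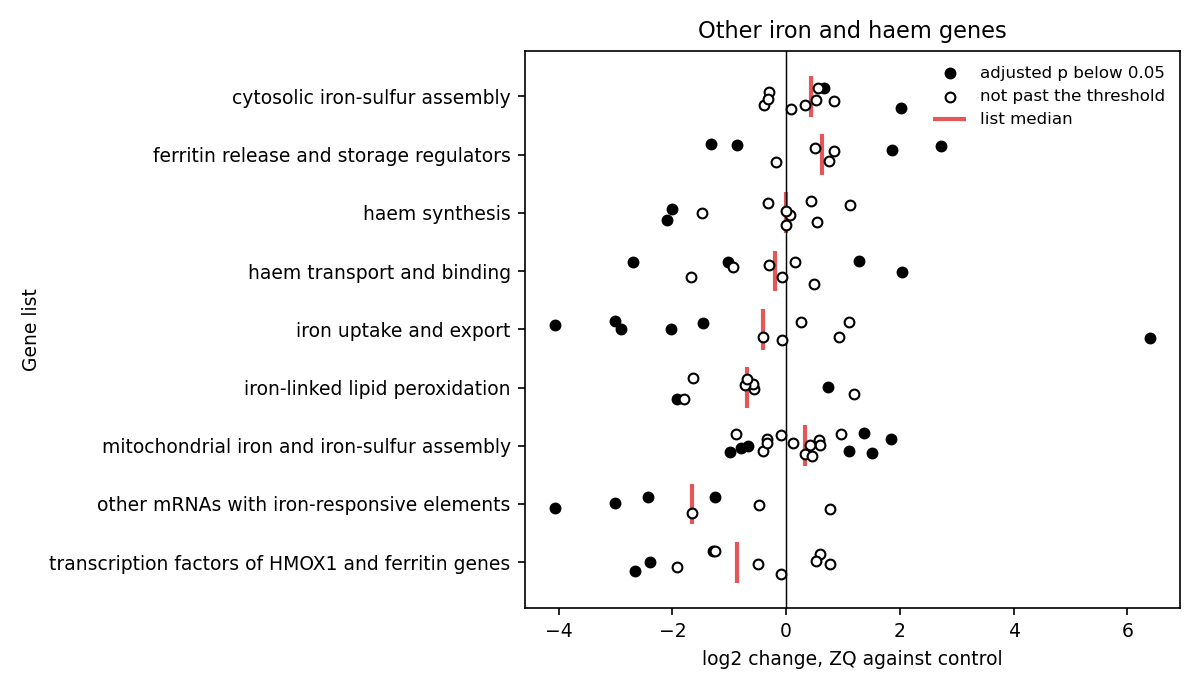
Log2 change with ZQ against control of each tested gene on 9 lists of other iron and haem genes (filled where the adjusted p is below 0.05, vertical position within a row jittered), with the list median in red. The lowest median is that of other mRNAs with iron-responsive elements, at -1.65, and TF is the point at 6.40.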

How the data were processed

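Gene expression was measured in 6 RNA-seq libraries, 3 per group, from total RNA with an NEBNext Ultra kit, per the labels' protocols. The authors deposited raw read counts per gene, not normalised. The build GRCh38 and the tool Cufflinks 2.1.1 are listed, per the submitters' processing notes, without saying what each was used for. Aligner, counter and strandedness: not given in the sources used here. Symbols were matched by Ensembl ID.

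Counts were fitted across the whole table with edgeR 4.0.16 in R 4.3.3: filterByExpr (minimum count 10, minimum total 15), TMM scaling, quasi-likelihood F-test and Benjamini-Hochberg adjustment over 12994 genes with a threshold of 0.05. A standard error is the log2 change divided by the square root of F. Within-library ratios used counts plus 0.5. Positions, lengths, GC content and hairpins came from GENCODE 29, with 1 representative transcript per gene (the longest principal one). Alternatives used DESeq2 1.42.0, limma 3.58.1 (voom), other filters and scalings, thinned controls, a replicate block, each library left out, pseudogene sums, and offsets per library from smooth curves on GC content and length (mgcv 1.9.3). The fit was tested on simulated data.

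The 10 genes, the lists and the rule for named genes were chosen with earlier results of these data known. The rule names all 10, the 4 genes of each list of lowest adjusted p, 12 further genes whatever their value, and the 5 genes nearest to HMOX1 and to TFRC. The offsets for the ratios and the comparison with olfactory receptor genes were added after seeing the data. Counting intervals and floors cover counting error only. One gene that the rule names is not reported here.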

Additional observations from a re-analysis of the deposited data

How the results depend on the processing

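Of 180 values of the 10 genes under 18 alternatives, 166 kept their direction and their side of the threshold. HMOX1, FTL, FTH1, TFRC, ACO1 and NCOA4 did so in all 18. With the GC and length offsets HMOX2 was -0.33, BLVRB -0.83, IREB2 0.29, CIAO2B -0.62, TAX1BP1 0.062, FBXL5 0.31, GPX4 -1.01, SLC48A1 -0.12 and SLC7A11 0.40, each opposite in sign to its reported value. So were, without a call, BLVRA under upper-quartile scaling (0.23), the stricter filter (0.071) and without control replicate 3 (0.042, range with a library left out -0.396 to 0.042), HMOX2 by library totals (-0.29), without a filter (-0.21) and without ZQ replicate 2 (range -0.26 to 0.286), GLRX3 by library totals (-0.052), ALAS1 by library totals (-0.31), without a filter (-0.23) and without ZQ replicate 1 or 2 (range -0.283 to 0.252), and KEAP1 without control replicate 2 (range -0.783 to 0.012). The causes were not tested. Of 670 values of the other named genes, 549 kept direction and side. The ratio shifts were reversed by the offsets for FTL to FTH1 (-0.32) and BLVRB to BLVRA (-0.33), and moved for TFRC to FTH1 (-2.78), IREB2 to ACO1 (2.53), NCOA4 to FTH1 (-2.32) and HMOX1 to BLVRB (4.04).

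The number of the 10 genes called lower was 5 by library totals, and leaving out each library gave 4 higher and 3 lower every time. Over all genes, 4978 were called (2506 higher, 2472 lower). There were 3767 higher and 1611 lower under upper-quartile scaling, 11603 (7957 higher) without a filter, 3248 (1552 higher) with the stricter one, 8824 (6184 higher) in DESeq2, and 2815 to 5407 (1389 to 2536 higher, 1426 to 2871 lower) with a library left out, the lowest without control replicate 1 and 3055 without control replicate 3. Upper-quartile scaling and library totals shifted the median change by 0.45 and -0.38 on the log2 scale. For the other iron and haem genes there were 25 higher under upper-quartile scaling, 3 higher by library totals, 31 lower without a filter and 19 higher in DESeq2, and 4 to 13 higher and 13 to 23 lower with a library left out. With a replicate block all the 10 genes kept their calls, with 4 higher and 3 lower, and the other iron and haem genes had 8 higher and 18 lower. Deviations of same-numbered libraries correlated at only 0.009 to 0.037, and for that small size the numbers were not taken as pairs. Each of the 6 did correlate best with its own number, though control 1 had 0.009 with both ZQ 1 and ZQ 3 after rounding. Whether the numbers mark pairs was not tested. Low ZQ depth limits genes with few counts, such as IREB2 and SLC40A1.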
